A study of Mus musculus with 6 samples.

Results

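The fibril-associated and microfibrillar collagens are a group of collagen genes whose products decorate, connect or run beside the thick collagen fibrils of a tissue. The 9 genes described here are Col6a1, Col6a2, Col6a3, Col8a1, Col9a1, Col12a1, Col13a1, Col14a1 and Col16a1, and they are 9 of the 18810 genes in the table. They were chosen by their names and not by their measured values, though with earlier results of these data known. RNA was sequenced from the dissected atrioventricular canal (AVC) region of mouse hearts, with 1 library for each of 3 Scx-/- and 3 Scx+/+ embryos. All were of the strain C57BL/6 and of embryonic day 15.5, the Scx+/+ embryos being wild-type littermates of the Scx-/- embryos, which are null for scleraxis (Scx). Scleraxis is a transcription factor of tendons, ligaments and heart valves, and the comparison asks which transcripts differ in remodeling valves that lack it. The dissected region held valve tissue together with neighbouring heart tissue, and no cell type was sorted, so that fewer cells of a type and less RNA per cell cannot be told apart in any value below.

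Collagens are built from chains in which glycine is repeated at a fixed spacing, so that the chains can wind into a triple helix. Type VI collagen joins its different chains into beaded microfibrils around cells, collagens IX, XII, XIV and XVI lie along or between fibrils, collagen VIII forms networks near endothelium and other cells, and collagen XIII sits in the cell membrane. Fibrils of collagens I, III and V, which some of these proteins contact, give heart valve leaflets much of their strength.

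Levels are RPKM, read counts scaled to the exon length of the gene and to the depth of the library, as deposited by the authors, so that levels of different genes can be set side by side. Worked back from the RPKM, the libraries held 52323449, 66991287 and 59737813 counted reads in Scx-/- replicates 1 to 3, against 60027724, 46429972 and 68570999 in the Scx+/+ replicates. No value of the 9 genes was at the common value of 0.095 RPKM that replaces low values in the table. The thinnest of their values, Col13a1 in Scx+/+ replicate 2, rested on 52 reads, and the best covered, Col6a1 in Scx-/- replicate 2, on 7047.

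Scx itself was listed at 33.6, 18.6 and 82.9 RPKM in Scx-/- replicates 1 to 3, and at 29.5, 58.3 and 26.0 RPKM in the Scx+/+ replicates. The genotypes overlap, and the highest value is from a library labelled Scx-/-. The table holds a value for the whole gene and not for the exon that the study measured to check the mutation, so these values do not check the genotype of a library, and Scx-/- and Scx+/+ stand below for the label that each library carries.

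The libraries Scx-/- replicate 3 and Scx+/+ replicate 2 stood apart from the other 4 in some markers, which was noticed after the values were seen. Hbb-y, an embryonic globin, was at 1.16 RPKM in Scx-/- replicate 3 and at 1.99 RPKM in Scx+/+ replicate 2, against 49.6 to 125 RPKM in the others. Summed over all 7 erythroid markers, of which the adult globin gene Hba-a1 was the most abundant, the levels were 10570, 11086 and 7225 RPKM in Scx-/- replicates 1 to 3, against 6206, 7882 and 10835 RPKM in the Scx+/+ replicates. Hbb-bh1, another embryonic globin, was at the replacement value in both libraries that stood apart and in Scx-/- replicate 1. The pair that stood apart had the highest sums over the 9 cardiomyocyte markers, 26639 and 29165 RPKM, against 16229 to 22025 RPKM in the others, and the most abundant of these markers was the myosin light chain gene Myl2. Myl2, Tnnt2, Tnni3, Myh6 and Actc1 were each higher in both libraries of the pair than in any other, while Myh7, Myl7, Nppa and Ryr2 were not. The pair also held the highest values of Scx, 82.9 and 58.3 RPKM, against 18.6 to 33.6 RPKM in the others. Over the 9 collagen genes the pair had the smallest distance of any 2 libraries, a root mean square difference of 0.30 on the log2 scale, although they carry different genotype labels. Over all 13827 genes that averaged 1 RPKM or more, the pair ranked only 10 of 15 from the closest, and the closest 2 libraries were 0.578 apart. Scx+/+ replicate 2 was the library farthest from the rest over these genes. It was at 0.896 to 0.910 from the other 4 and at 0.737 from Scx-/- replicate 3, while no other 2 libraries were more than 0.748 apart. The deviations of these genes from the mean of their genotype correlated at 0.320 between both libraries of the pair, the highest of the 9 values across genotypes, the next being 0.179. Scx+/+ replicate 2 also had the fewest counted reads and the most genes at the replacement value, 2252 against 1088 to 1465. The part of its features in any result was not tested.

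Every one of the 9 genes codes for long tracts in which each group of 3 codons opens with a glycine codon (GGN), counted here in the longest coding sequence of each gene as runs of at least 5 such triplets. A run of at least 20 triplets was found in all 9 genes, in all 43 collagen genes of the annotation by name, and in 63 of 22594 protein-coding genes, or 0.279%. Col6a1 and Col6a2 are built alike, each with a run of 87 triplets and then a run of 13, and their tracts take up 31.9% of the codons of each. In Col6a3 the same number of triplets as in Col6a2, 110, lies within a coding sequence of 2658 codons and makes up 12.4% of it. Col12a1 and Col14a1 each hold 83 triplets with a longest run of 32, placed at the far end of the coding sequence, where they make up 8.12% and 13.8% of the codons. Tracts make up more of the others, from 58.8% of the codons in Col8a1 and 62.0% in Col16a1 to 63.4% in Col9a1 and 71.0% in Col13a1.

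**Figure D1:**
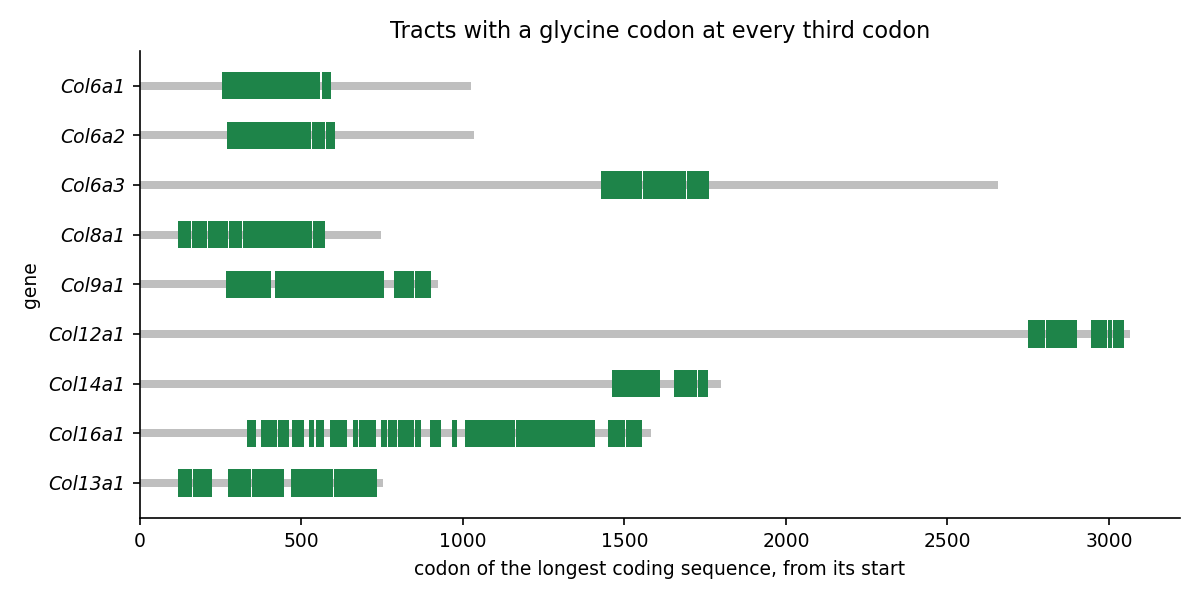
Position of the glycine triplet tracts in the longest coding sequence of each of the 9 genes, to scale. The horizontal axis gives the codon counted from the start, the grey line the whole coding sequence and the green blocks the runs of at least 5 triplets, which lie at the end of the sequence in Col12a1 and Col14a1, in the middle in Col6a3, and over 71.0% of it in Col13a1.

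The exons below show this repeat at the level of the bases. They were chosen as the longest fully coding exon of at most 63 bases in which every triplet opens with GGN, and the capitals mark the glycine codon that opens each triplet, other codons being in lower case even where they also encode glycine. They are read 5′ to 3′ along the transcript, and positions are on mm9. In Col6a1 the exon is number 15 of 35 on the minus strand (chr10:76180540-76180602), in Col6a2 number 12 of 28 on the minus strand (chr10:76072905-76072967), and in Col6a3 number 18 of 43 on the minus strand (chr1:92689591-92689653). For Col12a1 it is number 55 of 66 on the minus strand (chr9:79462156-79462209), for Col14a1 number 37 of 48 on the plus strand (chr15:55299515-55299568), and for Col13a1 number 28 of 42 on the minus strand (chr10:61326689-61326751).
Col6a1: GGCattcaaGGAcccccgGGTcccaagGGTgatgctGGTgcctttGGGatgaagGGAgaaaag
Col6a2: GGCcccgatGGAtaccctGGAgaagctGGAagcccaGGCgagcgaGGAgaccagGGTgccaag
Col6a3: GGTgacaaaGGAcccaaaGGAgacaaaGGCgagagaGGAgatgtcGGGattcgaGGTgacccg
Col12a1: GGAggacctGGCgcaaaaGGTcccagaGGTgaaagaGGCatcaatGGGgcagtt
Col14a1: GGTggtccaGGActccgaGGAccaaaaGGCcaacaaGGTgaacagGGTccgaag
Col13a1: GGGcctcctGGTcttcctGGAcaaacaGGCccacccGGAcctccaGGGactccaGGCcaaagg
The exons of the type VI genes and of Col13a1 hold 7 triplets in 63 bases, and those of Col12a1 and Col14a1 hold 6 in 54 bases. Fully coding exons that keep a glycine codon at the same place in each group of 3 codons throughout numbered 17 in Col6a1, 16 in Col6a2, 15 in Col6a3, and 6 each in Col12a1 and Col14a1, and the length of every one of them was a multiple of 9 bases, that is, of a triplet. Col8a1 has no such exon among its 4 exons. Col16a1 had 33, Col9a1 24 and Col13a1 27, of which 33, 21 and 26 had a length that is a multiple of 9, and the rest ended within a triplet.

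Col6a1 was the most abundant of the 9 genes in every library, and Col6a1, Col14a1 and Col6a2 kept that order of RPKM in all 6 libraries with no overlap of their ranges. On the length of the longest coding transcript in place of all merged exons, Col6a2 (12.7 to 15.3) and Col14a1 (10.2 to 15.8) overlap, with means of 13.4 and 12.9, so the order of these 2 genes depends on the length used. Mean levels over the 6 libraries were 19.5 RPKM for Col6a1, 11.9 for Col14a1, 6.38 for Col6a2, 4.15 for Col6a3, 3.75 for Col12a1, 1.76 for Col16a1, 1.26 for Col8a1, 1.10 for Col13a1 and 0.981 for Col9a1. Col6a3 was above Col12a1 in all 6 libraries although their ranges overlap. The lower end of the order is less settled, since Col16a1 exceeded Col8a1 in 5 of 6 libraries, Col8a1 exceeded Col13a1 in 4, and Col13a1 exceeded Col9a1 in 3, with overlapping ranges each time. On transcript length the means of Col13a1, Col9a1 and Col8a1 were 1.73, 1.31 and 1.26. Col8a1 thus moves from above both other genes to below them, while Col13a1 stays above Col9a1. All 9 genes together summed to 49.6, 59.8 and 47.1 RPKM in Scx-/- replicates 1 to 3 and to 46.9, 54.0 and 47.8 RPKM in the Scx+/+ replicates. The type VI chains made up 56.2% to 63.0% of that sum, the highest and the lowest share both being from Scx+/+ libraries.

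**Figure D2:**
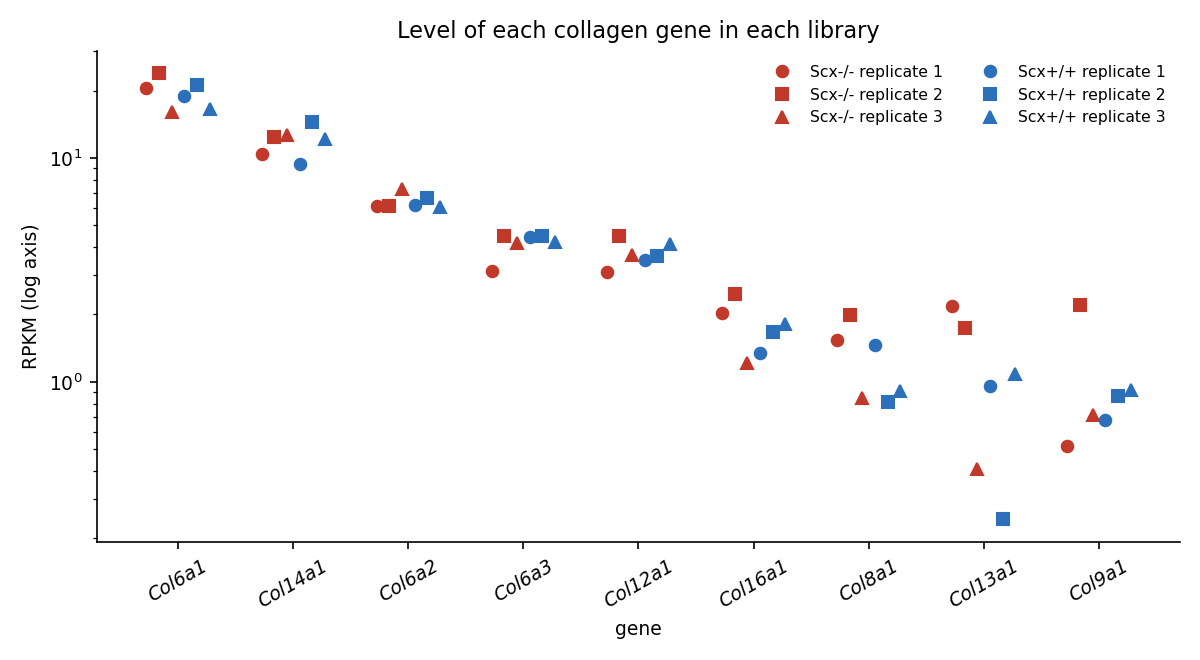
Level of each of the 9 genes in RPKM, on a log axis, with genes ordered by mean level. Each point is 1 library, red for Scx-/- and blue for Scx+/+, with the shape giving the replicate number. The red and blue points overlap for every gene, and the spread is widest for Col13a1, from 0.243 to 2.17 RPKM.

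None of the 9 genes passed the test between genotypes, and none had values that were separate in the 2 genotypes. The test was limma on log2(RPKM + 0.1), fitted over all 18810 genes, and an unadjusted p below 0.05 made a call. Of all genes, 731 (3.89%) were called, 531 of them higher in Scx-/-, and 0 were called after adjustment by Benjamini-Hochberg. The share of called genes that were higher in Scx-/- was 72.6%, against 43.5% when libraries were centred on their median ratio and 50.2% after quantile normalization. Without Scx+/+ replicate 2 the number of called genes was 1549. By lack of overlap alone, 1787 genes (9.50%) separated the genotypes. At either background rate, a count of 0 among 9 genes is close to what the table as a whole gives.

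Differences between genotypes were small against the spread of the libraries for most of the 9 genes. A log2 fold change is Scx-/- minus Scx+/+ on the log2(RPKM + 0.1) scale, where the changes of genes with low levels appear smaller than they are. Its median over the 9 genes was 0.08, beside 0.10 over all genes, and 6 of the 9 estimates were above 0. With libraries centred on their median ratio, and likewise after quantile normalization, 4 of the 9 were above 0, and the medians were -0.026 and -0.022. Adjusted p-values of the 9 genes from limma lay between 0.967 and 1.000.

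**Figure D3:**
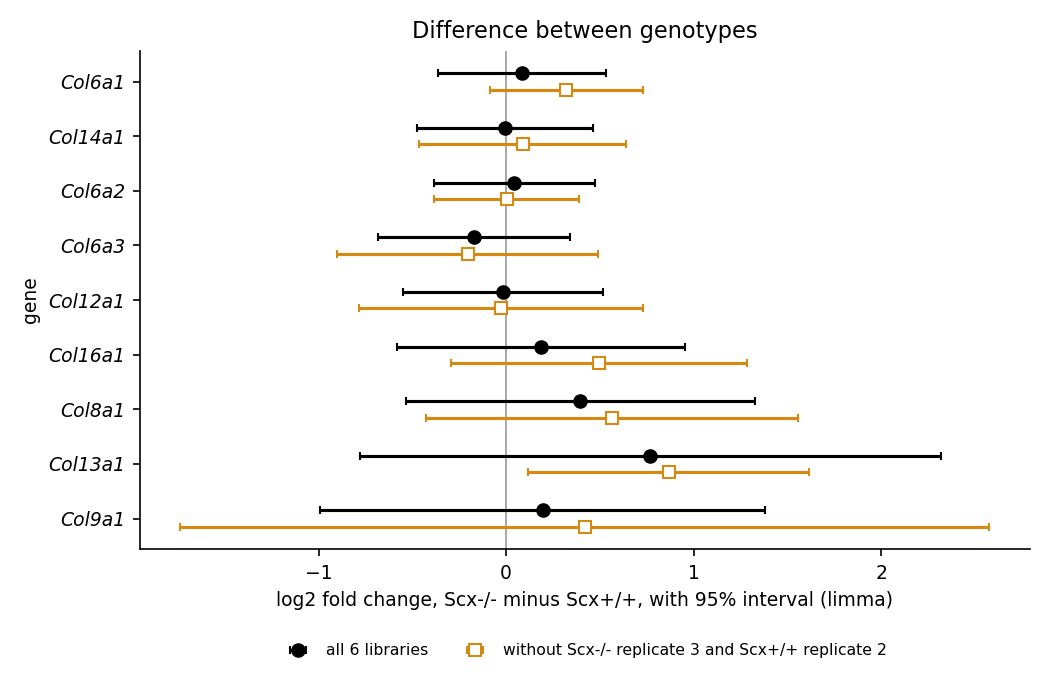
Log2 fold change, Scx-/- minus Scx+/+, of each of the 9 genes with the 95% interval from limma, for all 6 libraries (filled circles) and without Scx-/- replicate 3 and Scx+/+ replicate 2 (open squares). With all libraries each interval includes 0, and without that pair the interval of Col13a1, 0.12 to 1.61, lies above 0.

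Col6a1 and Col6a2 encode chains of type VI collagen and lie on the minus strand of chromosome 10, Col6a2 at 76058507 to 76086375 and Col6a1 at 76171537 to 76188913, with 85161 bases between them. Col6a1 was at 20.6, 23.9 and 16.1 RPKM in Scx-/- replicates 1 to 3, and at 19.0, 21.1 and 16.6 RPKM in the Scx+/+ replicates. In both genotypes replicate 2 was the highest and replicate 3 the lowest, and the ranges overlap. The log2 fold change of Col6a1 was 0.08 (standard error 0.20, 95% interval -0.36 to 0.53), so that changes beyond a fold of 0.777 to 1.44 lie outside the interval. It turned to -0.022 and -0.026 after quantile normalization and median centring, to -0.048 without Scx-/- replicate 2 and to -0.0061 without Scx+/+ replicate 3, and it rose to 0.24 without Scx-/- replicate 3 and to 0.32 without the pair, not called in either.

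Col6a2 was at 6.09, 6.11 and 7.24 RPKM in Scx-/- replicates 1 to 3, and at 6.15, 6.63 and 6.03 RPKM in the Scx+/+ replicates. It varied least of the 9 genes, with the highest library at 1.20 times the lowest, and Scx-/- replicate 3 was high while the other 5 values lie between 6.03 and 6.63 RPKM. For Col6a2 the log2 fold change was 0.04 (standard error 0.19, 95% interval -0.38 to 0.47), and it was -0.038 without Scx-/- replicate 3, -0.039 after quantile normalization and -0.066 after median centring. The RPKM of Col6a2 was computed over 8326 bases of merged exons, while its longest coding transcript has 3949 bases. On the length of that transcript its level would average 13.4 against 20.9 for Col6a1, so that the gap between both chains depends on the length used, as the genotype difference does not.

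Col6a3, which encodes the longest of these type VI chains, lies on the minus strand of chromosome 1 at 92663435 to 92740529. It was at 3.13, 4.48 and 4.16 RPKM in Scx-/- replicates 1 to 3, and at 4.44, 4.49 and 4.23 RPKM in the Scx+/+ replicates. Scx-/- replicate 1 was low, and the other 5 values lie between 4.16 and 4.49 RPKM. Between genotypes the log2 fold change was -0.17 (standard error 0.23, 95% interval -0.69 to 0.34), and it was -0.022 without Scx-/- replicate 1.

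The chains of type VI collagen assemble together, so their ratios within a library were compared as well, which do not depend on its depth. The ratio of Col6a3 to Col6a1 was 0.152, 0.187 and 0.259 in Scx-/- replicates 1 to 3, against 0.234, 0.213 and 0.255 in the Scx+/+ replicates. The Scx-/- libraries span more than the whole range of the Scx+/+ libraries. The ratio of Col6a1 to Col6a2 was 3.38, 3.92 and 2.22 in Scx-/-, and 3.08, 3.19 and 2.75 in Scx+/+, again with the wider range in Scx-/-. For Col6a3 to Col6a2 the values were 0.514, 0.733 and 0.575 in Scx-/- against 0.721, 0.678 and 0.700 in Scx+/+. In an exact two-sided permutation test over libraries, which cannot give a p below 0.1 here, p was 0.4 for Col6a3 to Col6a1, 0.9 for Col6a1 to Col6a2 and 0.4 for Col6a3 to Col6a2 (0.625, 0.9 and 0.625 adjusted over the ratios compared). The wider range within Scx-/- was not tested. Without the pair of libraries that stood apart, the genotypes did not overlap in Col6a3 to Col6a1 or in Col6a1 to Col6a2, and the log2 differences went from -0.26 to -0.53 and from 0.04 to 0.32, values that 2 libraries a genotype give without a test. Single omissions of a library gave -0.47 to -0.083 for Col6a3 to Col6a1, the smallest without Scx-/- replicate 1, and -0.13 to 0.28 for Col6a1 to Col6a2, whose sign thus turned.

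**Figure D4:**
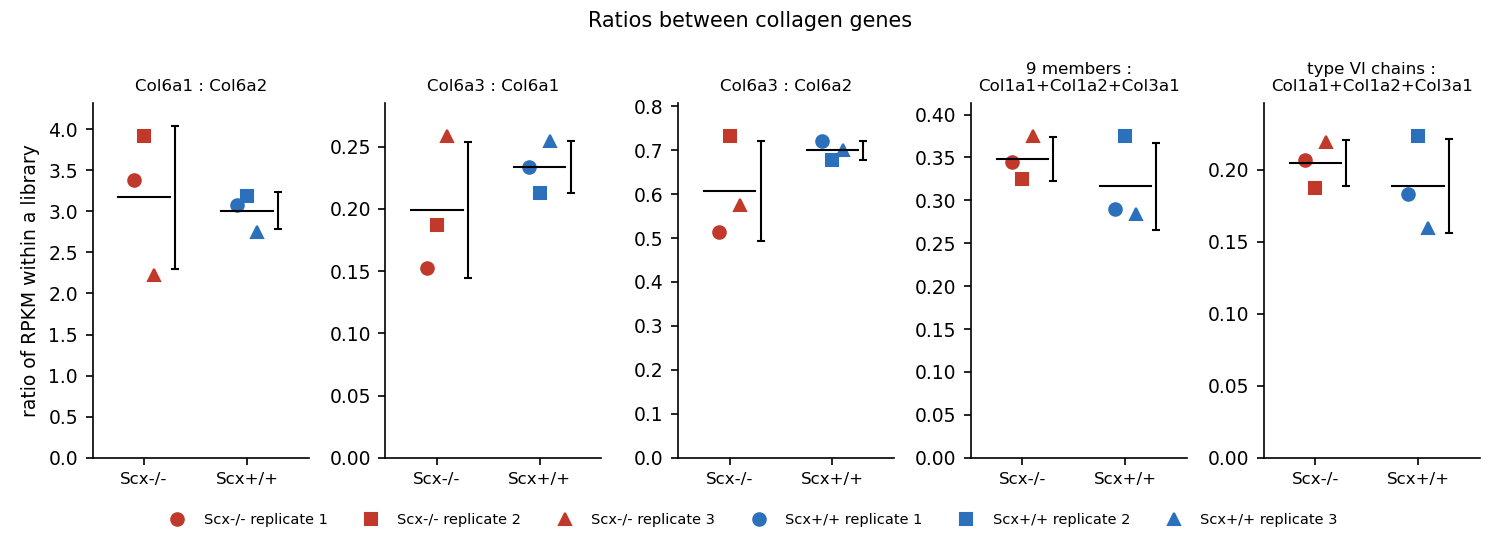
Ratios of RPKM within each library, for the type VI chains and for the 9 genes or the type VI chains relative to the summed fibrillar genes Col1a1, Col1a2 and Col3a1. Points are libraries with the shape giving the replicate number, horizontal lines are the means and bars the SD of 3 libraries. Genotypes overlap in all of these ratios, and Col6a1 to Col6a2 runs from 2.22 to 3.92 in Scx-/- libraries.

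Set against fibrillar collagen genes, the 9 genes summed to 0.344, 0.324 and 0.375 of the summed RPKM of Col1a1, Col1a2 and Col3a1 in Scx-/- replicates 1 to 3. In the Scx+/+ replicates the same ratio was 0.290, 0.375 and 0.284. The highest ratio of each genotype came from the pair of libraries that stood apart, and the groups overlap (exact two-sided permutation p = 0.3, adjusted 0.625). The overlap came from Scx+/+ replicate 2 alone, without which the log2 difference went from 0.15 to 0.27. The difference fell to 0.075 without Scx+/+ replicate 3, and to 0.090 without Scx+/+ replicate 1 or Scx-/- replicate 3. The type VI chains alone gave 0.160 to 0.224 over the 6 libraries (exact two-sided permutation p = 0.5, adjusted 0.625). Their log2 difference of 0.13 ran from 0.013 to 0.26 over single omissions. Without the pair neither of these ratios overlapped between genotypes, at differences of 0.22 and 0.20, again with 2 libraries a genotype and no test.

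Col12a1 and Col14a1 encode related collagens that sit on the surface of collagen I fibrils. Col14a1 lies on the plus strand of chromosome 15, the chromosome of Scx, at 55139305 to 55352358. It was at 10.4, 12.4 and 12.7 RPKM in Scx-/- replicates 1 to 3, and at 9.43, 14.5 and 12.1 RPKM in the Scx+/+ replicates. The lowest and the highest library are both Scx+/+, and the Scx-/- values lie between them. For Col14a1 the log2 fold change was -0.00 (standard error 0.21, 95% interval -0.47 to 0.47), which corresponds to folds of 0.720 to 1.38.

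Col12a1, on the minus strand of chromosome 9 at 79446798 to 79566638, was at 3.09, 4.47 and 3.68 RPKM in Scx-/- replicates 1 to 3, and at 3.49, 3.67 and 4.12 RPKM in the Scx+/+ replicates. Scx-/- replicates 1 and 2 hold the lowest and the highest value, with the Scx+/+ libraries between them. Its log2 fold change was -0.02 (standard error 0.23, 95% interval -0.55 to 0.52). The span of Col12a1 overlaps the gene 4930562D21Rik, but no exons are shared.

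Col16a1, the other fibril-associated collagen with a long coding sequence, lies on the plus strand of chromosome 4 at 129725084 to 129776527. Its levels were 2.03, 2.46 and 1.22 RPKM in Scx-/- replicates 1 to 3, and 1.34, 1.68 and 1.81 RPKM in the Scx+/+ replicates. Scx-/- replicates 1 and 2 were above all Scx+/+ libraries, and Scx-/- replicate 3 was below them. The log2 fold change was 0.19 (standard error 0.34, 95% interval -0.58 to 0.96), and it was 0.46 without Scx-/- replicate 3 and -0.018 without Scx-/- replicate 2.

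Col9a1 encodes a chain of collagen IX, best known from cartilage, and lies on the plus strand of chromosome 1 at 24184449 to 24259577. It was at 0.515, 2.20 and 0.709 RPKM in Scx-/- (replicates 1 to 3), where it rested on 138, 755 and 217 reads. In the Scx+/+ replicates it was at 0.673, 0.866 and 0.922 RPKM, from 207, 206 and 324 reads. Scx-/- replicate 2 alone was high, while Scx-/- replicate 1 was below the Scx+/+ range and Scx-/- replicate 3 within it. The log2 fold change of 0.19 (standard error 0.52, 95% interval -0.99 to 1.38) turned to -0.37 without Scx-/- replicate 2. The genes of the partner chains did not have that single high library, with Col9a2 at 1.28, 0.926 and 0.095 RPKM (the replacement value) and Col9a3 at 0.451, 0.531 and 0.361 RPKM in Scx-/- replicates 1 to 3. Both were singled out after their values were seen. Of the 7 cartilage markers listed, 0 were among the genes analysed here.

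Col8a1, the gene of a short-chain collagen, lies on the minus strand of chromosome 16 at 57624371 to 57754850. It was at 1.54, 1.99 and 0.849 RPKM in Scx-/- replicates 1 to 3, and at 1.45, 0.814 and 0.911 RPKM in the Scx+/+ replicates. Scx-/- replicates 1 and 2 were the highest, followed by Scx+/+ replicate 1, and Scx-/- replicate 3 fell among the remaining Scx+/+ libraries. Between genotypes it differed by a log2 fold change of 0.39 (standard error 0.41, 95% interval -0.54 to 1.33), which ran from 0.15 to 0.72 over the 6 single omissions of a library. Its partner chain gene Col8a2, also singled out after its values were seen, was at 0.532, 1.11 and 0.358 RPKM in Scx-/- and at 0.646, 0.360 and 0.715 RPKM in Scx+/+.

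Col13a1, the gene of the membrane-spanning collagen of the group, lies on the minus strand of chromosome 10 at 61300984 to 61441856. It was at 2.17, 1.74 and 0.410 RPKM in Scx-/- (replicates 1 to 3), where it rested on 524, 537 and 113 reads. In the Scx+/+ replicates it was at 0.957, 0.243 and 1.09 RPKM, from 265, 52 and 344 reads. The lowest value of each genotype came from the library that also had little Hbb-y, and the highest library was 8.94 times the lowest, the widest range among the 9 genes. Over all 6 libraries the log2 fold change was 0.77 (standard error 0.68, 95% interval -0.78 to 2.32, unadjusted p = 0.290 and adjusted p = 0.967 from limma), so that the interval runs from a fold of 0.583 to a fold of 4.98.

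Without Scx-/- replicate 3 and Scx+/+ replicate 2, a choice made after the values were seen, Col13a1 was the 1 gene of the 9 to be called. Its log2 fold change over the remaining 4 libraries was 0.87 (95% interval 0.12 to 1.61, unadjusted p = 0.0329 and adjusted p = 0.578 from limma), with 1.74 and 2.17 RPKM in Scx-/- above 0.957 and 1.09 RPKM in Scx+/+. In that fit 1587 of all genes (8.44%) were called, and 0 after adjustment, so that 1 of 9 is near the background there. The median of the 9 genes was 0.32 in the same fit, beside 0.14 over all genes. Leaving out Scx-/- replicate 3 alone gave Col13a1 a log2 fold change of 1.44, and over the 6 single omissions it ran from 0.20 to 1.44 without a call.

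The genes most like Col13a1 across the 6 libraries, by the root mean square difference of centred log2 values among 13826 genes that averaged 1 RPKM or more, were Tmem181d-ps and Tmem181c-ps (0.23 each), 6330403K07Rik (0.25), Gm16147 (0.26) and Gm13319 (0.29), where the median gene had 0.95. The values of both Tmem181 pseudogenes were identical in every library, so they are uncertain as separate measurements. 6330403K07Rik was at 6.96, 6.80 and 1.67 RPKM in Scx-/- replicates 1 to 3 and at 4.07, 1.72 and 3.94 RPKM in the Scx+/+ replicates. As for Col13a1, Scx-/- replicate 3 and Scx+/+ replicate 2 were the low libraries.

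**Figure D5:**
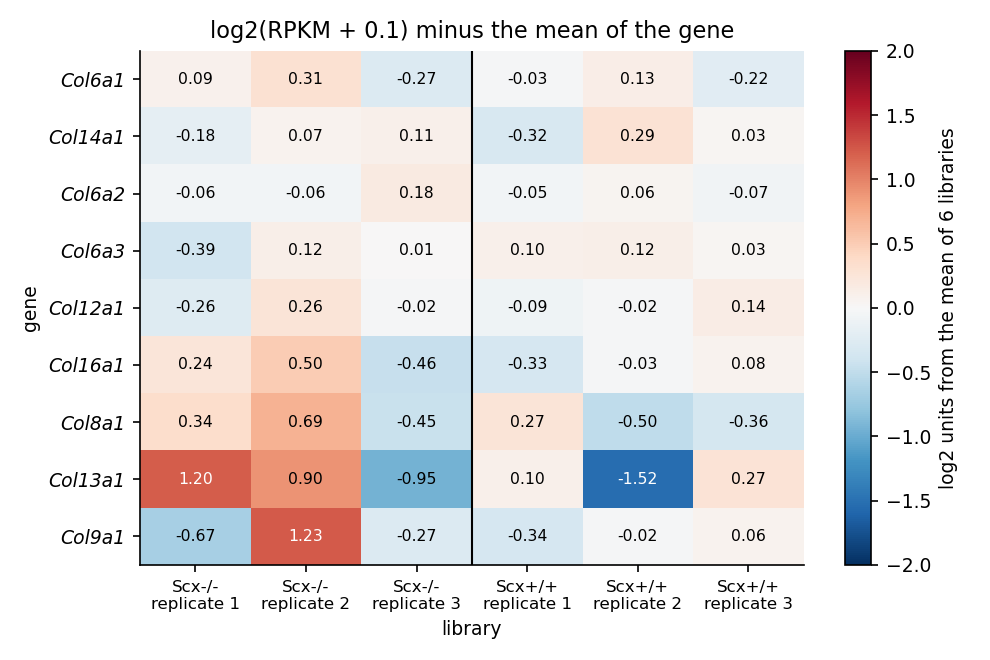
Log2(RPKM + 0.1) of each of the 9 genes in each library minus the mean of the gene over the 6 libraries, in log2 units. Red is above the mean and blue below, with the Scx-/- libraries left of the line. Col13a1 falls to -0.95 in Scx-/- replicate 3 and -1.52 in Scx+/+ replicate 2, and Col9a1 stands out at 1.23 in Scx-/- replicate 2.

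No library was high for the whole group. Scx-/- replicate 2 held the highest value of 5 of the 9 genes, Col6a1, Col8a1, Col9a1, Col12a1 and Col16a1, and the lowest of 0. Scx-/- replicate 1 held the lowest value of 3, Col6a3, Col9a1 and Col12a1, and the highest of Col13a1. In 5 of the 9 genes, among them all type VI chains, the highest library was under 1.6 times the lowest.

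Among 17 other non-fibrillar collagens listed, a list without the collagens of basement membranes, 8 were analysed here, and 0 of the 8 were called, with a median log2 fold change of 0.26. Col6a6, which encodes a further type VI chain, was the most abundant of them at 2.64, 3.04 and 1.92 RPKM in Scx-/- replicates 1 to 3 and at 2.83, 1.95 and 2.87 RPKM in the Scx+/+ replicates. It was thus low in the same pair of libraries as Col13a1. Col23a1, another membrane-spanning collagen, averaged 1.05 ± 0.340 RPKM in Scx-/- and 0.973 ± 0.477 RPKM in Scx+/+ (SD, n = 3). Col6a5, a further type VI chain gene singled out after its values were seen, lay between 0.148 and 0.463 RPKM. Of 6 basement membrane collagens left out of the list, 2 were called, beside 3.89% of all genes, and the ranges of the other 4 overlap. Col4a1 and Col4a2, named after their values were seen, were more abundant than any gene on it and were called lower in Scx-/-, with log2 fold changes of -0.58 and -0.57 (unadjusted p = 0.00552 and 0.00726, adjusted p = 0.967 from limma).

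Of 11 fibrillar collagens listed, 8 were analysed here, 0 were called, and 2 had a log2 fold change above 0, with a median of -0.10. Col3a1, the most abundant, averaged 124 ± 26.9 RPKM in Scx-/- and 125 ± 7.46 RPKM in Scx+/+, and Col5a2 30.2 ± 7.71 and 30.6 ± 2.19 RPKM (SD, n = 3). The 1 fibrillar gene without overlap was Col1a1, named for that after its values were seen, at 7.34, 8.09 and 7.70 RPKM in Scx-/- replicates 1 to 3 and at 9.91, 8.36 and 15.8 RPKM in the Scx+/+ replicates. Over all genes 9.50% had no overlap, so that 1 of 8 is near that share. Each Scx-/- value of Col1a1 was below each Scx+/+ value, yet the gene was not called (unadjusted p = 0.0746 from limma), except without Scx+/+ replicate 2 (-0.69).

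The partners and receptors of these collagens, small proteoglycans, matrilins, integrins and other receptors, had 17 of 22 listed genes analysed here, of which 1 was called higher and 0 lower, with a median log2 fold change of -0.01. Over all genes 3.89% were called. The called gene was Lum, which encodes lumican, a small proteoglycan that binds collagen fibrils. Lum was at 71.1, 122 and 83.8 RPKM in Scx-/- replicates 1 to 3, and at 53.4, 48.1 and 48.2 RPKM in the Scx+/+ replicates. All Scx-/- libraries were above all Scx+/+ libraries, most of all Scx-/- replicate 2. The log2 fold change was 0.85 (standard error 0.21, unadjusted p = 0.00332 and adjusted p = 0.967 from limma), and the gene was called under 15 of 16 alternatives, the exception being the test on RPKM without logarithms.

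Decorin and fibromodulin genes, Dcn and Fmod, also separated the genotypes without being called, and were named after their values were seen. With Lum, 3 of the 17 genes of the list had no overlap, beside 9.50% of all genes. Dcn, whose product binds collagens VI and XIV among others, was at 148, 170 and 172 RPKM in Scx-/- replicates 1 to 3 and at 113, 147 and 113 RPKM in the Scx+/+ replicates. Fmod was the lower one in Scx-/-, at 0.902, 0.632 and 0.486 RPKM against 1.23, 0.951 and 1.31 RPKM. Their unadjusted p-values from limma were 0.0533 and 0.0878. Dcn was called without Scx-/- replicate 1 (0.47), without Scx+/+ replicate 2 (0.53) and without the pair (0.49). Fmod was called after quantile normalization (-0.80) and median centring (-0.84), in limma without a trend (-0.73) and without Scx-/- replicate 1 (-0.94).

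Enzymes and chaperones of collagen assembly, which hydroxylate, fold and trim the chains, had 16 of 20 listed genes analysed here and 0 called, with a median log2 fold change of 0.06. That median was -0.045 after quantile normalization, -0.051 after median centring and 0.16 without the pair of libraries that stood apart. Ppib averaged 388 ± 42.9 RPKM in Scx-/- and 322 ± 64.7 RPKM in Scx+/+, and P4hb 164 ± 17.4 and 137 ± 12.1 RPKM (SD, n = 3), with overlapping ranges. Without the pair both were called higher in Scx-/-, Ppib by 0.53 and P4hb by 0.41 on the log2 scale, and Ppib also without Scx+/+ replicate 2 alone (0.44).

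Markers of the cell types in the region give the setting of these values. Beside the counts of called genes in these lists, the share over all genes was 3.89%. All 9 valve mesenchyme markers were analysed here and 0 were called, with a median log2 fold change of 0.03, the most abundant being Postn at 299 ± 85.5 RPKM in Scx-/- and 209 ± 56.3 RPKM in Scx+/+, followed by Tbx20 at 50.5 ± 14.0 and 49.4 ± 13.5 RPKM (SD, n = 3). The median of this list was -0.10 after quantile normalization, -0.076 after median centring and 0.12 without the pair. Postn was called higher without Scx-/- replicate 1 (0.73) or Scx+/+ replicate 2 (0.72). Cardiomyocyte markers were far more abundant, as the sums above show, and 1 of the 9 was called, the calcium release channel gene Ryr2, lower in Scx-/- at -0.46 on the log2 scale and a median over the list of 0.08. The call of Ryr2 was lost without Scx-/- replicate 1 (-0.42), Scx-/- replicate 2 (-0.36), Scx+/+ replicate 1 (-0.48) or Scx+/+ replicate 3 (-0.39), and in limma without a trend. Of the 7 fibroblast and tendon markers 5 were analysed here and 1 was called, Tcf21, a transcription factor of cardiac fibroblasts, at 9.39 ± 0.891 RPKM in Scx-/- and 6.34 ± 1.16 RPKM in Scx+/+ (SD, n = 3) and with a median over the list of 0.48. Its log2 fold change of 0.57 passed no longer without Scx-/- replicate 2 (0.58), Scx-/- replicate 3 (0.50) or Scx+/+ replicate 1 (0.42), nor after quantile normalization (0.47) or median centring (0.46).

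Of 6 epicardium markers 1 was called, Upk1b, a uroplakin gene, higher in Scx-/- by a log2 fold change of 0.61 with a median over the list of 0.27, and the call was lost without Scx-/- replicate 1 (0.51), Scx-/- replicate 2 (0.56), Scx+/+ replicate 1 (0.63) or Scx+/+ replicate 3 (0.48), and after median centring (0.50). Of 6 macrophage markers 5 were analysed here, with a median of 0.45, and 1 was called, Cd68, higher by 1.48 and no longer called without Scx-/- replicate 2 (1.14), Scx-/- replicate 3 (1.57) or Scx+/+ replicate 2 (1.01), without the pair (1.10) or with the replicate block. Cd68 was at the replacement value in Scx+/+ replicate 2, and its log2 fold change ran from 0.59 with a pseudocount of 1 to 1.82 with the smallest pseudocount. Of 6 melanocyte markers 4 were analysed here, with a median of 0.52, and 2 were called higher, Mlana and Dct. Mlana was at 1.20, 0.359 and 0.376 RPKM in Scx-/- replicates 1 to 3 and at the replacement value in all Scx+/+ libraries, so that its fold depends on that value, and its call was lost on RPKM without logarithms. Dct, higher by 0.90, was no longer called without Scx-/- replicate 2 (0.58), Scx-/- replicate 3 (0.93), Scx+/+ replicate 2 (0.81) or Scx+/+ replicate 3 (0.81), nor without the pair (0.84), after median centring (0.79) or with the replicate block. Endothelial (6 genes, median -0.06), smooth muscle (5 genes, median 0.23) and erythroid markers (7 genes, median 0.24) had 0 called genes in the main scaling, and 0 of the 5 epithelial markers were analysed here. The 2 most abundant genes of each of these lists were Pecam1 and Tek, Acta2 and Des, and Hba-a1 and Hba-a2. Of the endothelial markers, Kdr and Cdh5 were called lower after quantile normalization (-0.46 and -0.52), after median centring (-0.44 and -0.51) and without Scx-/- replicate 1 (-0.50 and -0.63). Single omissions also brought calls of Tagln (0.68), Bmp1 (0.57) and Msx1 (1.52) without Scx-/- replicate 3, of Alas2 (1.04) without Scx+/+ replicate 3, and of Dpt (0.82) and Col5a1 (-0.51) without Scx+/+ replicate 2. Col5a1 (-0.46), Msx1 (1.13) and Dpt (0.61) were called without the pair as well, as was Nppa (0.82), which no single omission brought. The genes named for calls outside the main test were chosen after their values were seen. No gene named in these lists was called after adjustment by limma.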

How the data were processed

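RPKM per Ensembl gene were deposited by the authors, who aligned the reads to mm9 with TopHat 1.4.1, counted them in exons with easyRNASeq, kept genes with enough reads and gave low values a common value. Gene names, exons and coding sequences came from GENCODE mouse release 1, which held 18695 of the 18810 genes. Reads and depth were worked back from each RPKM with the exon length of its gene, and 98.45% to 98.57% of the values under 1000 reads came out whole within 0.1 read. Genotypes were compared on log2(RPKM + 0.1) over all genes by limma 3.58.1 (R 4.3.3), with an intensity trend and no covariate, steps tested on simulated data, and ratios with an exact permutation test. Python 3.11.15 with pandas 2.3.3 did the rest. Named are the 9 members, Scx, list genes called at an unadjusted p below 0.05 or else the 2 most abundant of a list, the 5 genes most like the most variable member, and other genes chosen after their values were seen. The lists are other non-fibrillar collagens, fibrillar collagens, partners and receptors, collagen assembly and 12 sets of cell type markers, of which 1 is not reported here. Members and lists were chosen with earlier results of these data known. Alternatives were other pseudocounts, a filter at a mean of 1 RPKM, no trend, one-way ANOVA, other scalings, a replicate block, each library left out, and, added after seeing the data, the pair of libraries that stood apart left out.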

Additional observations from a re-analysis of the deposited data

How the results depend on the processing

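Called genes numbered 731, and 539 to 1549 over the 6 single omissions of a library, the highest without Scx+/+ replicate 2, and 1587 without Scx-/- replicate 3 and Scx+/+ replicate 2. After adjustment the count was 0, except for 1 gene by one-way ANOVA on log2 values. Of the 9 members 0 were called in the main test and in 15 of 16 alternatives, and 1 (Col13a1, 0.87) without that pair of libraries, where the median of the members was 0.32. The median ran from -0.039 to 0.24 over the single omissions. Estimates near 0 changed sign without passing the test. Quantile normalization gave Col6a1 -0.022 and Col6a2 -0.039, and median centring gave -0.026 and -0.066. Without the pair Col14a1 was at 0.087. Among the lists, the median of the cardiomyocyte markers turned to -0.031 after median centring, and that of the partners and receptors to 0.042 without the pair. Over single omissions the ranges were -0.048 to 0.24 for Col6a1, -0.038 to 0.085 for Col6a2, -0.27 to -0.022 for Col6a3, 0.15 to 0.72 for Col8a1, -0.37 to 0.58 for Col9a1, -0.15 to 0.11 for Col12a1, -0.17 to 0.14 for Col14a1, -0.018 to 0.46 for Col16a1 and 0.20 to 1.44 for Col13a1. The cause was not tested. Correlations of deviations between libraries of equal replicate number were 0.0921, -0.220 and -0.188, which cannot settle whether these numbers pair the samples. The sample labels do not give the litter, so the main test has no litter term. With the replicate block 573 genes and 0 members were called. The block and both ANOVAs lost the calls of Cd68 and Dct, and both ANOVAs called Dcn, Fmod and Myh7. ANOVA on the RPKM also lost Lum and Mlana. With a filter at a mean of 1 RPKM, Col9a1 gave no value. Col13a1, Col9a1 and Col8a1 had the fewest reads of the members, with 52, 138 and 193 in their thinnest libraries. The part of depth in their spread was not tested.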
